A study of Brassica rapa with 28 samples.

Results

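The genes described here are the 200 most abundant of those in Brassica rapa leaves whose identifiers start with BraSca, the prefix taken here to mark gene models on sequence scaffolds that were not placed on a chromosome. They were selected on the measured values. Each count was expressed as CPM, which brings every library to the same total, and the 200 BraSca IDs with the highest mean CPM over all 28 libraries were kept. They were 200 of 1309 BraSca IDs, in a table of 48826 IDs. The other IDs, 47517 in number, start with BraA and serve as the comparison. The lowest member was BraSca000969, with a mean of 0.903 CPM, and the first ID outside the list was BraSca001008, with 0.884 CPM. The files did not pair IDs with gene names, and 0 IDs matched the RefSeq gene table used here, so the members are given by ID, without names or functions. The scaffold of each ID is not given either, and the leaf label was not checked against marker genes.

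The samples were leaf punches of wild-type R-o-18 plants and of 1 mutant line, BrphyB-3. Plants were 3 weeks old at the first sampling, and tissue of 3 plants was combined into each replicate, called a pool here. The pre and 24hr samples came from a leaf left uncovered, 24 h apart. The dark sample came from a second leaf of the same plants, which had been wrapped in foil since the pre sampling and was unwrapped 48 h after the 24hr sampling, and the recovery sample came from that second leaf 24 h later. A contrast of dark or recovery with pre therefore also crosses from one leaf to the other. Pools 3 to 6 were wild type (4 pools) and pools 3 to 5 mutant (3 pools), and each was sampled at the 4 stages. In the values below, wild-type libraries are given in the order of pools 3, 4, 5 and 6, and mutant libraries in the order of pools 3, 4 and 5.

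A genome assembly leaves some sequence unplaced where repeats, near-identical copies or gaps keep it from being joined to a chromosome, and genes on such pieces are often left out of genome-wide summaries although their transcripts are counted like any other. Phytochrome B is a photoreceptor that red light converts to its active form and that relaxes to the inactive form in darkness. In a shaded or darkened leaf, transcripts of photosynthesis and growth genes typically decline while those of starvation, catabolism and senescence genes accumulate. Copies that are nearly identical can share or lose reads in counting, and the use of strand was not given in the sources used here, so counts of members with a close copy or an overlapping antisense gene are uncertain.

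Total counts per library ranged from 4928822 to 14159657. Between 191 and 200 of the members had at least 1 read in each library. A count of 0 allows up to 3 reads, a floor that covers counting error only and corresponds to 0.209 to 0.613 CPM after scaling by the normalisation factors (normalised CPM, the scale of all levels below unless stated). The libraries are bulk tissue, so fewer cells of a type and less RNA per cell cannot be told apart.

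Most BraSca IDs had no reads. Of the 1309, 794 (60.7%) were at 0 in all 28 libraries, against 11709 (24.6%) of the BraA IDs. The members made up 0.41% of the IDs in the table and 0.788% of all reads, and the 1309 BraSca IDs together took 0.792%. The median of the members' mean CPM was 10.3, with quartiles of 2.90 and 26.5. There were 102 members at 10 CPM or more and 17 at 100 CPM or more. For the 24758 BraA IDs with enough reads to test, the median was 10.3 CPM and the highest value 14498.5 CPM. These levels are not divided by transcript length, since no lengths were used, so they compare shares of reads between genes and not numbers of molecules. Because the members were chosen by this measure, the comparison is a description only.

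Reads were concentrated on few members. The most abundant, BraSca000426, held 11.4% of the members' summed CPM, and BraSca000048, next in rank, brought the share to 22.2%. The first 6 held 42.8%, the first 20 held 67.4%, and the first 100 held 94.9%. The share of a library's reads that fell on the 200 members in the wild type was 0.650% ± 0.0394 (SD, n = 4) in the dark stage, against 0.787% ± 0.018 at pre, 0.773% ± 0.0186 at 24hr and 0.848% ± 0.0828 after recovery. For the mutant these shares were 0.665% ± 0.0238 (SD, n = 3), against 0.818% ± 0.0696, 0.853% ± 0.0934 and 0.903% ± 0.0837. The dark libraries lay below all libraries of the other stages in both genotypes. With the 6 most abundant members left out, the mean share at dark was the highest of the 4 stages in both genotypes, at 0.507% against 0.417%, 0.430% and 0.403% at pre, 24hr and recovery in the wild type, and at 0.496% against 0.448%, 0.484% and 0.416% in the mutant. Dark libraries overlapped those at 24hr in both genotypes and those at pre in the mutant. In mutant pool 3 the share was 0.518% at pre and 0.540% at 24hr, above all mutant dark libraries, and wild-type pool 6 at 24hr, with 0.480%, was above wild-type pool 3 at dark, with 0.466%.

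**Figure D1:**
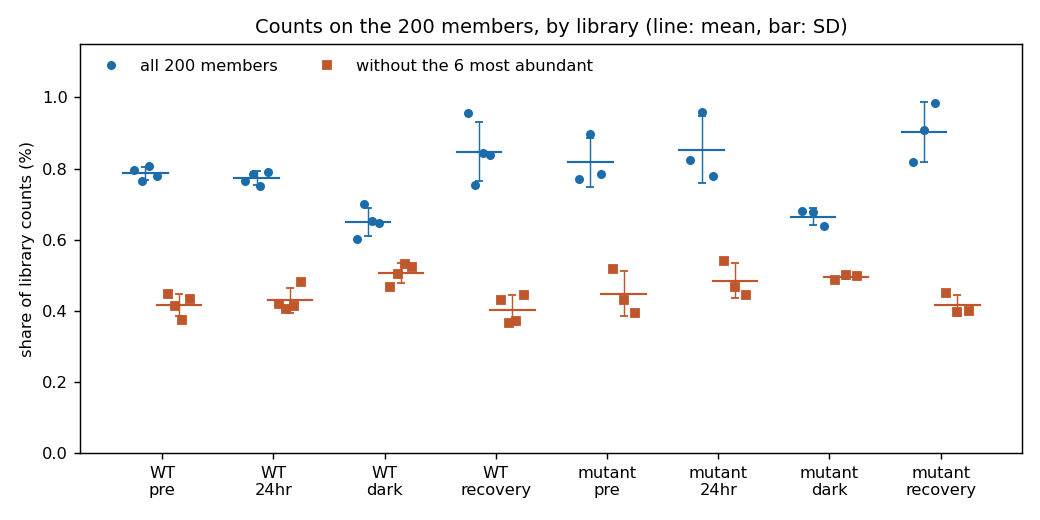
Share of each library's reads (percent, vertical axis) that fell on all 200 members (circles) and on the members without the 6 most abundant (squares), by genotype and stage; each point is 1 library, the horizontal line the group mean and the bar its SD. All circles of the dark groups lie below those of the other stages, with means of 0.650% and 0.665%, whereas the squares at dark, with means of 0.507% and 0.496%, overlap those at 24hr.

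The first question was how the members changed in the darkened leaf. In the wild type, 134 of the 199 members tested (67.3%) changed between pre and dark at an adjusted p under 0.05 in the quasi-likelihood test of edgeR, Benjamini-Hochberg adjusted over all 24992 IDs tested, against 59.3% of the BraA IDs. Of these members, 61 were higher at dark and 73 lower, against 29.1% of BraA IDs higher and 30.3% lower. In the mutant, 118 members passed the same test, 52 higher and 66 lower, against 55.5% of BraA IDs in all, 26.6% higher and 28.9% lower. The median log2 fold change of the members was -0.16 (wild type) and -0.25 (mutant), beside -0.01 and -0.07 over the BraA IDs. One member of the 200, BraSca001094, did not pass the filter on low counts and is described with the members that owed much of their total to 1 library.

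The level of a gene bears on how easily it passes a test, so the same shares were read by abundance. Among members at 10 CPM or more, 67.6% passed in each genotype, against 68.2% and 65.3% of BraA IDs in the same range. Among members under 10 CPM, 67.0% passed in the wild type, against 52.0% of BraA IDs between the lowest member's level and 10 CPM. In the mutant the corresponding shares were 50.5% and 47.9%. The excess of members over BraA IDs was thus in the less abundant members of the wild type and was smaller in the mutant. Whether these shares differ was not tested. The spread between pools was alike in both sets, with a median biological coefficient of variation of 28.3% for the members and of 28.3% for BraA IDs at or above the lowest member's level.

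**Figure D2:**
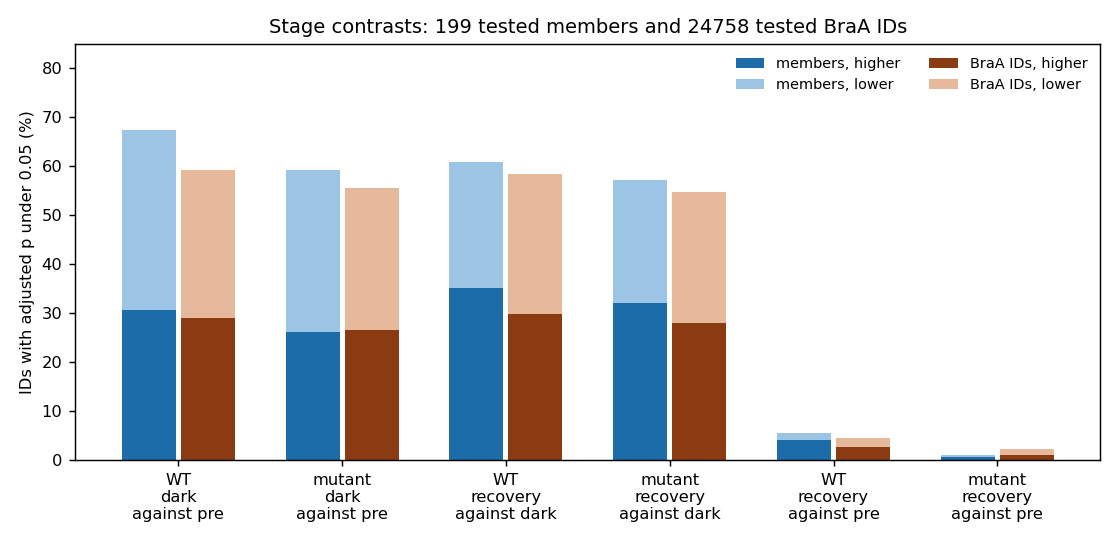
Percent of IDs (vertical axis) with an adjusted p under 0.05 in 6 stage contrasts, for the 199 tested members (blue) and the 24758 tested BraA IDs (brown), split into higher (dark shade) and lower (light shade). Members and BraA IDs stand close to each other in each contrast, with the widest gap in wild-type dark against pre, 67.3% against 59.3%.

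The most abundant member, BraSca000426, fell in the dark. In the wild type its normalised CPM was 1475, 1316, 1425 and 1214 at pre, 56.2, 182, 51.8 and 77.4 at dark, and 1389, 1358, 1538 and 1439 at recovery. The mutant libraries held 639.9, 1325 and 1417 at pre, 153, 142 and 70.1 at dark, and 732, 1344 and 1302 at recovery. In both genotypes each dark library was under each pre and each recovery library, and mutant pool 3 was the lowest of its genotype at pre and at recovery. The log2 fold change from pre to dark was -3.89 ± 0.37 (SE; adjusted p = 7.35e-09, edgeR quasi-likelihood test) in the wild type and -3.21 ± 0.42 (adjusted p = 1.05e-06) in the mutant. From dark to recovery it was 3.97 ± 0.38 and 3.21 ± 0.42, so that recovery differed from pre by 0.08 and by less than 0.01 on the log2 scale, with no call in either genotype (adjusted p = 0.927 and 1).

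BraSca000048, next in abundance, fell further. Its normalised CPM in the wild type was 653, 934, 1319 and 763 at pre and 11.1, 15.9, 29.2 and 41.9 at dark. The mutant held 536, 1708 and 1023 at pre and 10.0, 22.6 and 10.6 at dark. No dark library of either genotype came near a pre library, and the log2 fold change was -5.22 ± 0.50 (SE; adjusted p = 6.16e-09, edgeR quasi-likelihood test) in the wild type and -6.23 ± 0.60 (adjusted p = 1.81e-08) in the mutant, which is 37.2-fold and 75.3-fold. At recovery the wild-type values were 1988, 913, 1309 and 959 and the mutant values 1418, 1471 and 2225, within or above the range at pre. With BraSca000426 and BraSca000048 left out, the wild-type share of reads on the members was 0.582% ± 0.0184 (SD, n = 4) at pre and 0.636% ± 0.0325 at dark. The libraries of these stages overlapped, with pool 3 at dark (0.596%) under pools 3 and 6 at pre (0.598% and 0.597%).

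The largest wild-type fall among the members that met the naming rule (called in both genotypes, no overlap, 10 CPM or more in a group) was that of BraSca000614, which had few reads in the dark. It had 38.8, 21.6, 13.5 and 12.4 normalised CPM at pre and 0.321, 0.822, 0.0952 and 0.766 at dark in the wild type, and 39.4, 13.6 and 13.6 at pre and 0, 0.0936 and 0.229 at dark in the mutant. The dark values were at or near the level of single reads, with 19 reads over the 4 wild-type libraries and 3 reads over the 3 mutant libraries. The log2 fold change in the wild type was -5.47 ± 0.67 (SE; adjusted p = 1.09e-07, edgeR quasi-likelihood test). From the summed reads, pre exceeded dark 42.3-fold in wild-type libraries (95% interval 26.9 to 70.7) and 235-fold in mutant libraries (95% interval 80.0 to 1141), intervals that cover counting error only. At recovery it stood at 5.55, 8.86, 8.43 and 10.6 in wild-type pools and at 8.58, 9.27 and 1.75 in mutant pools. All wild-type recovery libraries were under all pre libraries, but the difference of -1.34 on the log2 scale did not pass the test (adjusted p = 0.107), nor did that in the mutant (-1.74, adjusted p = 0.0982).

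The largest rise among the members that met the naming rule was that of BraSca000916. Wild-type libraries were at 4.29, 6.56, 4.78 and 7.79 normalised CPM at pre and at 151, 44.5, 74.8 and 107 at dark. The mutant libraries were at 5.65, 17.7 and 12 at pre and at 22.0, 83.6 and 85.4 at dark. The groups did not overlap in either genotype, although mutant pool 3 at dark stood only a little above mutant pool 4 at pre. At 24hr mutant pool 4 held 33.6, above mutant pool 3 at dark. The log2 fold change was 3.99 ± 0.58 (SE; adjusted p = 2.92e-06, edgeR quasi-likelihood test) in the wild type and 2.43 ± 0.61 (adjusted p = 0.00172) in the mutant. At recovery the wild-type libraries held 23.7, 20.6, 11.8 and 55.6 and the mutant libraries 25.8, 24.2 and 20.2. The wild-type level at recovery was still above pre, by 2.24 ± 0.55 on the log2 scale (adjusted p = 0.0224), whereas in the mutant the difference of 0.99 did not pass (adjusted p = 0.459), and the difference between genotypes was not tested for this contrast.

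BraSca001142 rose from a lower level. Its wild-type libraries held 1.23, 1.39, 2.16 and 1.34 normalised CPM at pre and 29.6, 10.5, 18.5 and 10.7 at dark, and its mutant libraries 0.573, 0.596 and 0.473 at pre and 13.6, 10.8 and 12 at dark. The pre values rest on 6 to 19 reads per wild-type library and on 5 to 7 reads per mutant library. The lowest dark library was above the highest pre library and the change passed in both genotypes, both of which the naming rule required. The log2 fold change was 3.48 ± 0.59 (SE, adjusted p = 2.2e-05, edgeR quasi-likelihood test) in the wild type and 4.43 ± 0.75 (adjusted p = 2.8e-05) in the mutant. At recovery the wild-type libraries stood at 6.48, 2.57, 2.44 and 1.34 and the mutant libraries at 0.510, 1.24 and 0.328, which overlapped the pre values in both.

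**Figure D3:**
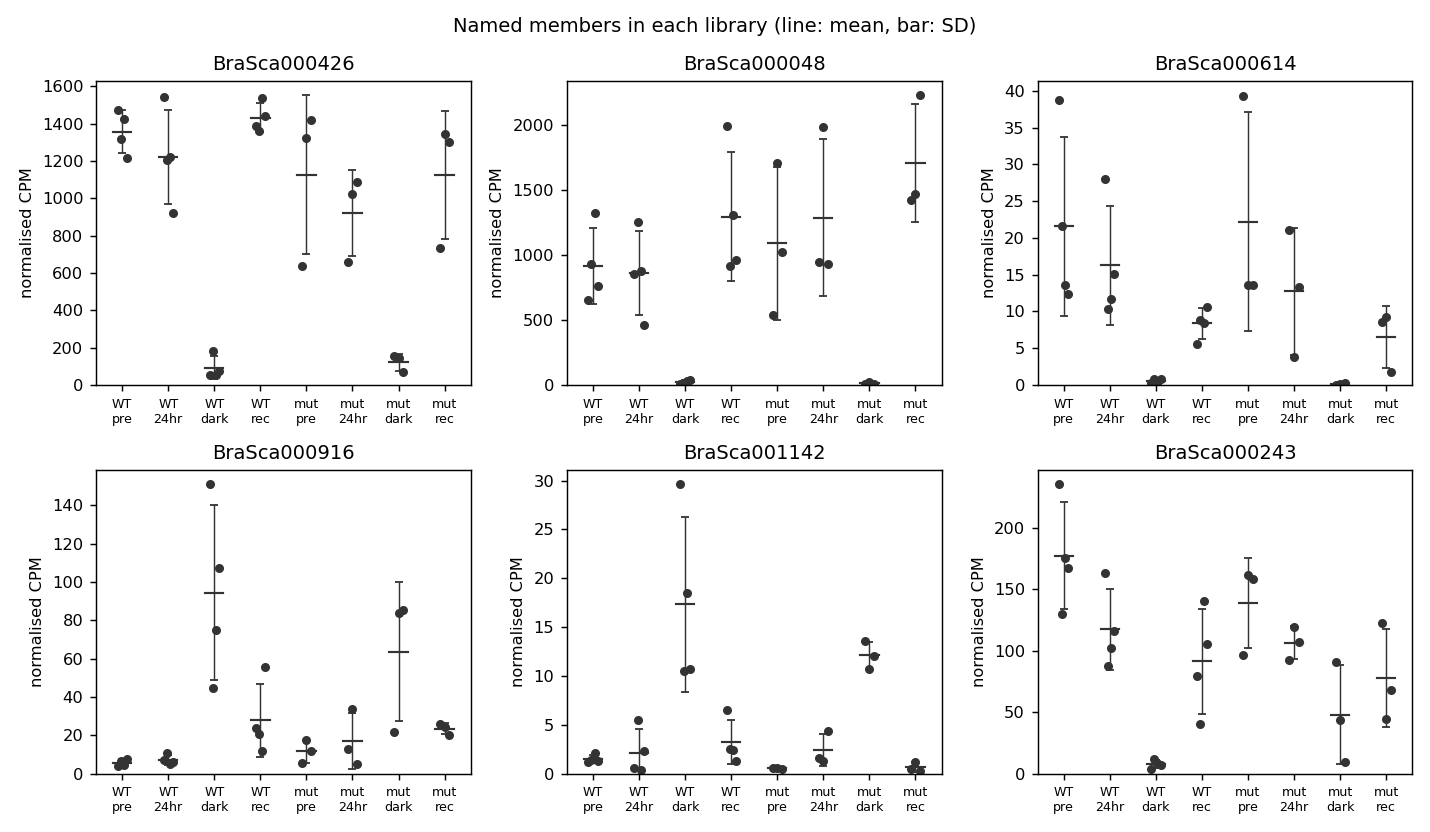
Normalised CPM (vertical axes, a separate linear scale in each panel) of 6 members in each library, by genotype and stage; points are libraries, the line is the group mean and the bar its SD. BraSca000426, BraSca000048 and BraSca000614 are low in all 7 dark libraries and BraSca001142 is high in them. BraSca000916 is higher at dark than at pre, but mutant pool 3 at dark (22.0) lies under mutant pool 4 at 24hr (33.6). Wild-type pool 4 at dark (44.5) likewise lies under wild-type pool 6 at recovery (55.6). BraSca000243 is low in the wild-type dark libraries and spread from 9.95 to 90.6 in the mutant ones.

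The dark response of the members was largely shared by the genotypes. Of the members that passed in each, 104 passed in both (52.3% of those tested, against 47.5% of BraA IDs), which is 77.6% of the wild-type calls and 88.1% of the mutant calls, and all 104 had the same sign, with 47 higher and 57 lower at dark. For BraA IDs the corresponding shares were 80.1% and 85.6%. A further 51 members (25.6%) passed in neither genotype, against 32.6% of BraA IDs. Across the 199 members the log2 fold changes of the genotypes had a Pearson correlation of 0.854 and a Spearman correlation of 0.891, beside 0.877 and 0.885 across the BraA IDs, where genes are not independent replicates. Of the 104, there were 64 with at least 10 CPM at pre or dark and no overlap of the libraries of these stages in either genotype, and of these 22 rose and 42 fell. The 64 were 32.2% of the members tested, against 30.9% of BraA IDs under the same rule, with 11.1% that rose and 21.1% that fell, against 15.8% and 15% of BraA IDs. Of the 20 most abundant members, all at 76.4 CPM or more, 5 were higher at dark in both genotypes, 8 were lower in both, 4 passed in 1 genotype and 3 in neither. The shares of BraA IDs in that range were not computed, so these counts are a description only.

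**Figure D4:**
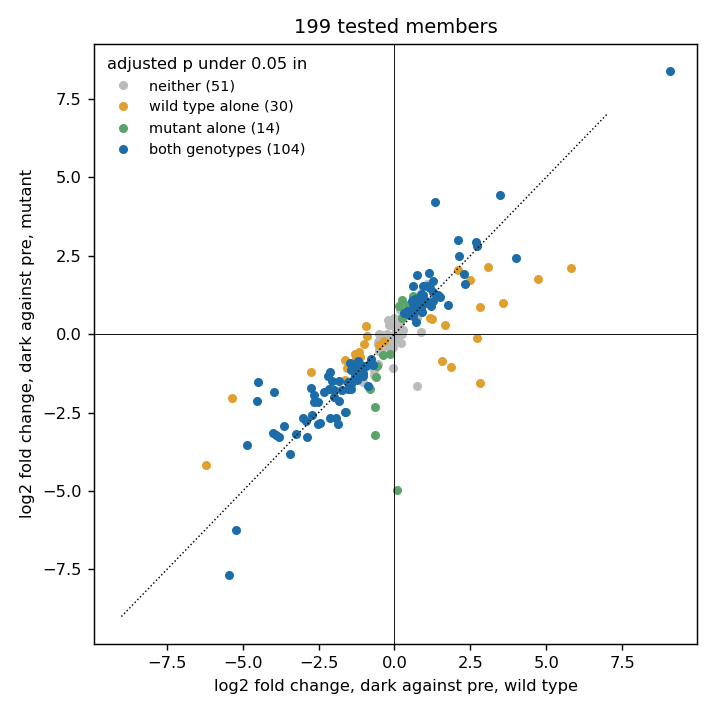
Log2 fold change from pre to dark in the wild type (horizontal axis) and in the mutant (vertical axis) for the 199 tested members; colours mark in which genotype the adjusted p was under 0.05, and the dotted line marks equal change. The 104 members called in both lie at the lower left or upper right; the point at the far upper right is BraSca000714, with 0 reads in every pre library, whose fitted value is not a measured fold.

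The second question was how the members changed when the leaf was uncovered. From dark to recovery, 121 members passed in the wild type, against 58.5% of BraA IDs, with 70 higher and 51 lower, against 29.9% and 28.6% of BraA IDs. In the mutant 114 passed, against 54.7% of BraA IDs, with 64 higher and 50 lower, against 28% and 26.7%. The members' median log2 fold change was 0.17 (wild type) and 0.25 (mutant), beside 0.01 and 0.05 over the BraA IDs. There were 97 members that passed in both genotypes (48.7%, against 45.8% of BraA IDs), and 96 of them had the same sign. They were 80.2% of the wild-type and 85.1% of the mutant calls, beside 78.3% and 83.7% for BraA IDs, of which 11322 of 11336 had the same sign. The contrast of recovery with dark shares the dark libraries with that of dark with pre, so their values are given side by side above for the named members and no overlap is counted.

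The member that passed in both genotypes with opposite signs from dark to recovery was BraSca000802, which was picked out after its values were seen. Its normalised CPM in the wild type was 1.02, 5.54, 7.62 and 6.21 at pre, 22.5, 38.0, 39.6 and 41.5 at dark, and 15.8, 24.6, 23.8 and 14.3 at recovery. Its mutant values were 11.9, 28.5 and 21.8 at pre, 18.6, 19.8 and 18.4 at dark, and 17.9, 51.7 and 53.0 at recovery. In the wild type the dark libraries were above all pre libraries, whereas in the mutant dark and pre overlapped. Dark and recovery overlapped in both genotypes. The wild-type dark library at 22.5 was under the wild-type recovery libraries at 24.6 and 23.8. The mutant recovery library at 17.9 was under all mutant dark libraries. The log2 fold change from dark to recovery was -0.85 ± 0.36 (SE; adjusted p = 0.0468, edgeR quasi-likelihood test) in the wild type and 1.11 ± 0.42 (adjusted p = 0.0278) in the mutant. The difference between these changes did not pass its own test (1.96 ± 0.55 on the log2 scale, adjusted p = 0.253).

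By 24 h after uncovering, few members passed the adjusted test against their level at pre. In wild-type pools 11 passed the test of recovery against pre, against 4.43% of BraA IDs, with 8 higher and 3 lower, against 2.69% and 1.74%. In the mutant 2 passed, against 2.2% of BraA IDs, with 1 higher and 1 lower, against 0.937% and 1.26%. The wild-type count fell to 4, 3, 5 and 2 without pool 3, 4, 5 and 6 respectively, each time with a share of BraA IDs of 1.72% or less. The mutant count became 1 without mutant pool 3 and 0 without mutant pool 4 or 5, where 1.05%, 0.329% and 0.407% of BraA IDs passed. It was 4 (BraA 3.40%) when the plant pool was a block in the fit. At an unadjusted p under 0.05 by the edgeR test, there were 38 wild-type calls among the members (19.1%, against 19.9% of BraA IDs). In the mutant there were 23 such calls (11.6%, against 15.4%). Members without an adjusted call are therefore not shown to be back at their level at pre.

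Of the 2 members that stood out by rule in this contrast, one fell in every wild-type pool. BraSca000955 had 48.0, 41.8, 62.6 and 50.4 normalised CPM at pre and 20.5, 3.72, 7.51 and 7.69 at recovery in the wild type, without overlap. The log2 fold change was -2.37 ± 0.44 (SE; adjusted p = 0.00474, edgeR quasi-likelihood test), and it passed under all 13 alternatives tried. The mutant had 22.1, 28.6 and 30 at pre and 31.5, 14.1 and 15.1 at recovery, which overlapped, and the difference of -0.41 did not pass (adjusted p = 0.772). The other, BraSca000784, rested on 1 library. It had 0, 0.0923, 0.455 and 0 at pre and 0.103, 29.9, 0.203 and 1.34 at recovery, with 314 of its 332 wild-type recovery reads in pool 4. Its log2 fold change of 5.60 ± 1.57 (adjusted p = 0.036) became 1.62 without pool 4 (adjusted p = 0.756), and over 12 alternatives the adjusted p ran from 0.00233 to 0.756. The mutant libraries of BraSca000784 had 3, 9 and 4 reads at pre and 0, 209 and 21 at recovery, and the log2 fold change of 3.67 did not pass (adjusted p = 0.181).

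Among the other members that passed in this contrast, 3 were picked out after their values were seen, 1 because it passed in both genotypes and 2 because they are among the 6 most abundant. BraSca000717 had 23.3, 13.5, 9.10 and 20.9 normalised CPM at pre and 4.53, 2.38, 4.06 and 4.92 at recovery in the wild type, and 15.1, 18.0 and 10.5 at pre and 6.46, 2.34 and 1.75 at recovery in the mutant. The recovery libraries were under all pre libraries in both, with log2 fold changes of -2.05 ± 0.40 (SE; adjusted p = 0.00564, edgeR quasi-likelihood test) and -2.03 ± 0.46 (adjusted p = 0.0199). It had already fallen at dark, to 2.68 ± 0.517 (SD, n = 4) in the wild type and 3.20 ± 2.33 (SD, n = 3) in the mutant, and the step from dark to recovery passed in neither. The wild-type call was lost without wild-type pool 6 (adjusted p = 0.0593) and the mutant call without mutant pool 4 or 5 (adjusted p = 0.186 and 0.137). Over 13 alternatives the adjusted p ran from 0.000116 to 0.0593 for the first and from 0.00215 to 0.199 for the second.

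BraSca000558, of rank 6 in abundance, went from a fall at dark to a level above that before darkness. Wild-type libraries held 229, 275, 364 and 317 normalised CPM at pre, 66.9, 44.0, 51.5 and 102 at dark, and 832, 658, 589 and 532 at recovery. The mutant libraries held 231, 415 and 370.2 at pre, 95.9, 135 and 73.1 at dark, and 408, 816 and 938 at recovery. The wild-type libraries at pre, dark and recovery did not overlap, and in the mutant the recovery library of pool 3 lay within the range at pre. The fall from pre to dark was -2.16 ± 0.31 on the log2 scale (adjusted p = 2.75e-06) and -1.74 ± 0.35 (adjusted p = 0.000228) in the respective genotypes. The excess of recovery over pre was 1.14 ± 0.30 on the log2 scale (SE; adjusted p = 0.0308, edgeR quasi-likelihood test) in the wild type and 1.09 ± 0.35 (adjusted p = 0.103) in the mutant. The wild-type call was lost when any 1 wild-type pool was left out, with adjusted p between 0.0806 and 0.218, and over 13 alternatives the adjusted p ran from 0.00709 to 0.218.

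BraSca000707, of rank 4 in abundance, moved the other way. Its normalised CPM in the wild type was 256, 362, 409 and 372 at pre, 720.3, 613, 494 and 399.6 at dark, and 181, 274, 244 and 151 at recovery. Mutant libraries were at 222, 285 and 326 at pre, 722, 459 and 609.8 at dark, and 154, 145 and 159.8 at recovery. The mutant libraries at pre, dark and recovery did not overlap. Wild-type pool 6 at dark lay within the range at pre, and wild-type pool 3 at pre lay within that at recovery. The rise from pre to dark passed in both, at 0.67 ± 0.20 on the log2 scale (adjusted p = 0.00693) and 1.11 ± 0.24 (adjusted p = 0.000402). The difference of recovery from pre was -0.72 ± 0.20 on the log2 scale (SE; adjusted p = 0.0445, edgeR quasi-likelihood test) in the wild type and -0.86 ± 0.24 (adjusted p = 0.057) in the mutant. The wild-type call passed under 3 of 13 alternatives, with adjusted p from 0.0174 to 0.196, and without wild-type pool 3, 4, 5 or 6 the adjusted p was 0.0724, 0.0898, 0.168 or 0.196.

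The higher member in the mutant was BraSca000711, picked out after its values were seen. It had 0.655, 0.170 and 0.756 normalised CPM at pre and 2.04, 26.3 and 1.31 at recovery, without overlap but with pool 4 far above the others, and a log2 fold change of 4.24 ± 1.06 (SE; adjusted p = 0.033, edgeR quasi-likelihood test). Its wild-type libraries had 0, 3, 4 and 7 reads at pre and 12, 104, 8 and 54 at recovery. That log2 fold change of 3.28 did not pass (adjusted p = 0.0808). Of the 8 members higher in the wild type, BraSca000724 also had 1 library far above the others, with 1.34, 2.00, 2.03 and 21.3 at recovery. At pre it had 0.613, 0.277, 0.341 and 0.487, and all 4 recovery libraries were above all pre libraries. BraSca000802, of rank 64, was also higher in the wild type, by 1.89 on the log2 scale (adjusted p = 0.00869, edgeR quasi-likelihood test). In the mutant its difference of 0.98 did not pass (adjusted p = 0.249). The wild-type log2 fold changes of the 3 other higher members, of ranks 115, 189 and 198, were 1.57, 1.75 and 3.07, and none of them passed in the mutant.

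In the uncovered leaf, 24 h apart, 0 members passed in either genotype, against 0% of BraA IDs in each, by the edgeR test (Benjamini-Hochberg adjusted). At an unadjusted p under 0.05 there were 6 wild-type calls among the members (3.02%, against 2.61% of BraA IDs) and 11 mutant calls (5.53%, against 3.4%), and DESeq2 also called 0 members in each.

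Members with no call between stages were about as frequent as BraA IDs of like abundance. There were 44 members (22.1%) that passed in none of the stage contrasts of either genotype, against 22.0% of BraA IDs. For 20 members (10.1%, against 10.5%) each log2 fold change between stages was under 0.5 in size. The most abundant of these 20 was BraSca000339, which was picked out after its values were seen. It had 139.9, 137, 146 and 139 normalised CPM at pre, 139, 157, 159.6 and 142 at dark and 144, 138, 127 and 113 at recovery in the wild type. Mutant values were 109, 146 and 134 at pre, 180.5, 171 and 141 at dark and 135, 115 and 149 at recovery. Its stages overlapped in both genotypes.

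Mutant and wild type were compared at each stage. At pre 0 members passed, against 0.137% of BraA IDs. At 24hr 0 passed, against 0.145%, and at recovery 0 passed, against 0.21%. At dark 1 member passed, against 0.198%. These are edgeR calls, Benjamini-Hochberg adjusted, and at an unadjusted p under 0.05 it gave 18, 17, 18 and 20 members at pre, 24hr, dark and recovery, which is 9.05%, 8.54%, 9.05% and 10.1% of the members against 6.8%, 7.61%, 10.1% and 8.09% of BraA IDs. DESeq2 called 2, 1, 2 and 0 members at these stages, against 0.423%, 0.430%, 0.904% and 0.804% of BraA IDs. For the difference between genotypes in the change from pre to dark, 0 members passed, against 0.0121% of BraA IDs, with 20 at an unadjusted p under 0.05 (10.1%, against 7.35% of BraA IDs) and 2 by DESeq2 (BraA 0.180%). For the change from dark to recovery 0 passed, against 0% of BraA IDs, with 15 at an unadjusted p under 0.05 (7.54%, against 8.24%) and 1 by DESeq2 (BraA 0.470%). With the plant pool as a block, the first of these differences gave 1 member, against 0.0283% of BraA IDs.

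The member called at dark was BraSca000243. In the wild type its normalised CPM was 236, 130.4, 176 and 168 at pre and 4.25, 12, 8.95 and 6.89 at dark, and in the mutant it was 96.3, 162 and 159 at pre and 90.6, 43.6 and 9.95 at dark. Mutant pools 3 and 4 were above all wild-type dark libraries, but mutant pool 5 was within their range. The mutant was higher by 2.61 ± 0.50 on the log2 scale (SE; adjusted p = 0.0326, edgeR quasi-likelihood test). Without mutant pool 3 the difference was 1.76 (adjusted p = 0.330), without wild-type pool 3, 5 or 6 the adjusted p was 0.0609, 0.0941 or 0.207, and with a term for the letter that opens each sample description it was 0.0879. With the replicate number as a block it was 0.0562. Over 14 alternatives the adjusted p ran from 0.000437 to 0.587. It fell from pre to dark in both genotypes, by -4.49 ± 0.51 (adjusted p = 9.95e-08) and -1.53 ± 0.51 (adjusted p = 0.0147) on the log2 scale, and the difference between these falls did not pass (2.97 ± 0.70, adjusted p = 0.203).

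BraSca000802, whose libraries are given above, was the next nearest to a call between the genotypes. At pre the mutant was higher by 1.97 ± 0.41 on the log2 scale (SE; adjusted p = 0.0512, edgeR quasi-likelihood test), with all 3 mutant libraries above all 4 wild-type libraries. The rise from pre to dark passed in the wild type (2.73 ± 0.40, adjusted p = 3.23e-06), and the difference between the genotypes in that change was -2.87 ± 0.58 (adjusted p = 0.0798, and 0.0420 with the plant pool as a block, and from 0.00300 to 0.403 over 13 alternatives). At dark the mutant libraries were all below the wild-type libraries, by -0.90 on the log2 scale, which did not pass (adjusted p = 0.428). Over 14 alternatives the adjusted p of the difference at pre ran from 0.00264 to 0.323 and passed in 4.

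Some members owed much of their total to 1 library. These were picked out after their values were seen, as the members with over 33.3% of their CPM, summed over 28 libraries, in a single one. There were 7 of 200 (3.5%), against 1.45% of 22542 BraA IDs at or above the lowest member's level, a difference that was not tested. BraSca001046 had 138.5 normalised CPM in wild-type pool 6 at 24hr, from 1391 reads, and 4.49 to 5.64 in the other 3 libraries of that group. BraSca000701 had 35.5 in wild-type pool 6 at dark, from 417 reads, and 1.44 to 3.29 in the other 3. Both had 1 pool far above the rest, and the high library of each was from wild-type pool 6, but at different stages and from different leaves.

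BraSca001094 had 2 high libraries, one in each genotype. At dark it held 23.1, 0.493, 0.667 and 0.426 normalised CPM in the wild type and 0.605, 27.3 and 0.686 in the mutant, from 288 reads in wild-type pool 3 and 292 in mutant pool 4. In all 21 other-stage libraries it was at 0.569 or less. It did not pass the filter on low counts and was not tested.

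BraSca000238 was high in 1 wild-type pool at 3 stages. In pool 3 it held 9.39 normalised CPM at pre and 23.4 at 24hr, then 0 at dark and 26.2 after recovery, and in the other wild-type pools the highest value at any stage was 4.24, in pool 5 at 24hr. Pool 3 was thus the highest of the wild type at 3 of 4 stages, and in both leaves. Wild-type libraries held 613 of its reads and mutant libraries 15. At dark it had 1 read over all 7 libraries. The mutant was lower at 24hr and at recovery at an unadjusted level, but neither difference passed (adjusted p = 0.352 and 0.286, edgeR quasi-likelihood test).

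BraSca000714 had nearly all of its reads in dark libraries. It had 0 reads in all 7 libraries at pre and, in the wild type, in all 4 at 24hr. At dark it held 7.38, 1.97, 2.67 and 12.9 normalised CPM in the wild type and 0, 8.23 and 3.66 in the mutant, and at recovery 0, 0.762, 0 and 1.07 in the wild type and 0, 0.0730 and 0 in the mutant. Mutant pool 3 had 0 reads at dark too, so the mutant groups overlapped, whereas the wild-type groups did not. The change from pre to dark passed in both genotypes (adjusted p = 0.000341 and 0.00217, edgeR quasi-likelihood test). BraSca000711 and BraSca000724, with 33.8% and 35.7% of their CPM in mutant pool 4 and in wild-type pool 6 at recovery, complete the 7.

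**Figure D5:**
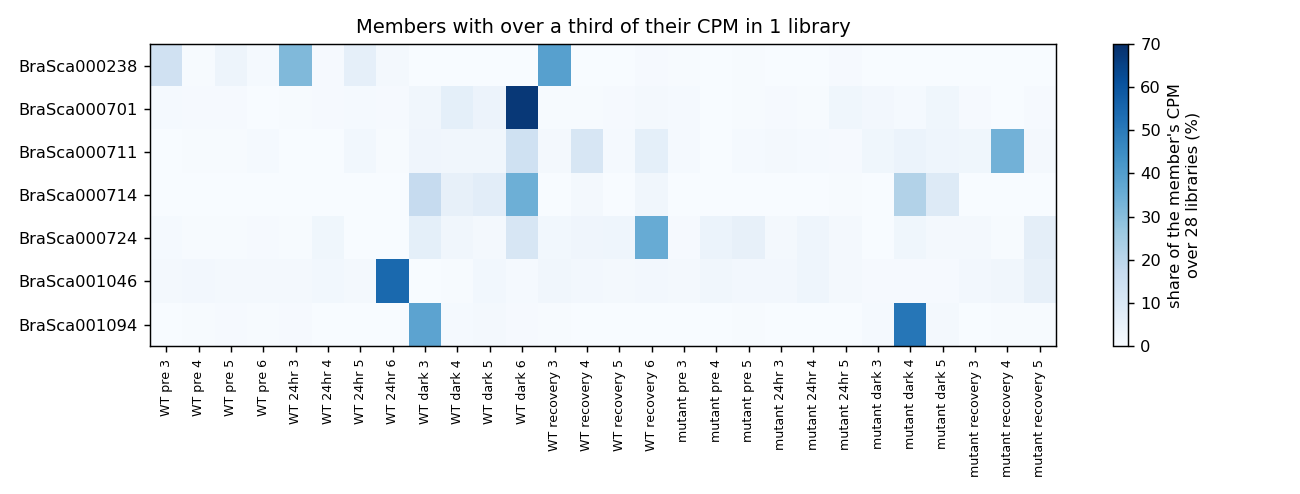
Share of each member's CPM, summed over 28 libraries, that each library holds (colour, in percent), for the 7 members with over 33.3% in 1 library; rows are members and columns are libraries. The darkest cells are 67.8% of BraSca000701 in wild-type pool 6 at dark, 54.7% of BraSca001046 in wild-type pool 6 at 24hr and 51.1% of BraSca001094 in mutant pool 4 at dark.

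Each member was also assigned to the library in which its CPM, here not scaled by the normalisation factors, was highest. These factors were 1.04 to 1.24 in wild-type dark libraries and 0.854 to 0.939 at pre, so the unscaled values favour the dark libraries there. In the mutant the ranges overlapped (1.04 to 1.17 and 0.895 to 1.10). The BraA shares were taken on the same scale. For 88 members (44%) that library was a dark one, against 47.0% of BraA IDs at or above the lowest member's level. For 44 members (22%) it was a recovery library, against 18.5%, for 37 (18.5%) a 24hr library, against 19.4%, and for 31 (15.5%) a pre library, against 15%.

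IDs with consecutive numbers may lie next to each other on a scaffold, which the files do not state. There were 114 members with a neighbour in number among the members, the longest run being 6 IDs. In 68 tested pairs of such neighbours, both passed in wild-type dark against pre in 26, and in 15 of these (57.7%) both moved the same way, against 54.4% of BraA pairs. The correlation of neighbours across the 28 libraries had a median of 0.10, against 0.07 for BraA pairs, as a description over libraries that share stage and depth. The pair with the highest value was BraSca000523 and BraSca000524, at 0.947. It was the 1 pair of 68 (1.47%) over 0.8, against 4.82% of BraA pairs. Both members passed in dark against pre and in recovery against dark in both genotypes. In the wild type BraSca000523 fell from 19.6 ± 7.94 normalised CPM (SD, n = 4) at pre to 4.92 ± 1.18 at dark and stood at 19.9 ± 3.29 at recovery, and BraSca000524 fell from 210 ± 22.1 to 37.1 ± 18.4 and stood at 262 ± 25.8.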

How the data were processed

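Poly(A) RNA of 28 leaf libraries (8 groups) was sequenced as single reads of 80 bases, per the labels' protocols. The deposited table holds raw counts, whole numbers per ID and library that the authors did not normalise. The submitters' processing notes name bcl2fastq 2.17.1.14, Trimmomatic 0.36, Bowtie2 and HTSeq. The genome build, the annotation and the use of strand were not given in the sources used here. Every row had an ID, and 0 columns had no sample.

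The members were selected by mean CPM, and members, lists and tests were chosen with earlier results of these data known. In R 4.3.3, low counts were filtered with filterByExpr of edgeR 4.0.16 (24992 IDs kept, 99.9% of counts), scaled by TMM, and fitted as 8 group means with edgeR's quasi-likelihood method. There were 14 contrasts, adjusted by Benjamini-Hochberg over all tested IDs. The SE, the size of the log2 fold change over the root of its F statistic, is approximate. Data were simulated for wild-type dark against pre over 24438 genes, with 50 genes changed at each fold and all others left equal between these 2 groups. The test recovered 6% of 1.5-fold, 18% of 2-fold, 62% of 4-fold and 84% of 8-fold changes. In the measured contrast 59.3% of BraA IDs passed, which makes the adjusted threshold less strict. The simulated shares therefore do not give the recovery in the measured contrast.

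The naming rule took the 2 most abundant members. It also took the largest 2 rises and 2 falls in wild-type dark against pre among members called in both genotypes with 10 CPM or more in a group and no overlap, members called between genotypes, and the largest rise and fall in wild-type recovery against pre. BraSca000048 was named by 2 parts of this rule. Members chosen after their values were seen are marked as such. The 7 members held by 1 library were chosen so as well.

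Same-numbered libraries of a genotype come from the same plants, per the labels. Their deviations from group means had a median correlation of 0.158 within a leaf and 0.0393 between leaves. Replicates are pools of different plants. No libraries of the same group were repeats of one another, since the lowest chi-square per gene within a group was 9.84, where counting noise gives about 1. This value does not cover pairs of libraries from different groups. The alternatives were DESeq2 1.42.0, scaling by RLE, no low-count filter, a fit of the compared groups only, a replicate block, a term for the letter of the sample description, leaving out each pool, and members by median CPM. The legacy form of edgeR's quasi-dispersion was added after seeing the data. No sequences were used.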

Additional observations from a re-analysis of the deposited data

Results flagged for a closer look

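Sets of 4 wild-type libraries were examined for 1 value far from the other 3, and 13 of 76 sets held one. The cut-off used flags about 1 in 20 sets of normally distributed values, which values from few reads need not follow. Many of these members were picked out because 1 library held much of their total. The 13 of 76 therefore cannot be set against that rate and are a description only.

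In BraSca001046, wild-type pool 6 at 24hr stood at 138.5 normalised CPM, against 4.49 to 5.64 in the other pools. In BraSca000701, wild-type pool 6 at dark stood at 35.5, against 1.44 to 3.29. In BraSca001094, wild-type pool 3 at dark stood at 23.1, against 0.426 to 0.667. In BraSca000784, wild-type pool 6 at dark stood at 24.8, against 3.45 to 4.01, and wild-type pool 4 at recovery at 29.9, against 0.103 to 1.34. For BraSca000238, wild-type pool 3 stood at 23.4 at 24hr, against 0.498 to 4.24, and at 26.2 at recovery, against 0 to 0.358, while the value of 0.0851 in wild-type pool 6 at dark is a single read. BraSca000711 had 1.75 in wild-type pool 5 at 24hr, against 0.166 to 0.299, and 9.02 in wild-type pool 6 at dark, against 1.48 to 2.17. BraSca000724 had 1.74 in wild-type pool 4 at 24hr, against 0.0996 to 0.224, and 21.3 in wild-type pool 6 at recovery, against 1.34 to 2.03. In BraSca001142, wild-type pool 5 at pre had 2.16, against 1.23 to 1.39. Of these 13 values, 6 came from wild-type pool 6. The same tally over the BraA IDs was not computed, so this is a description only.

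BraSca000724 also moved in opposite directions in the genotypes, higher at dark than at pre in each wild-type pool and lower in each mutant pool. Wild-type libraries had 3, 3, 3 and 4 reads at pre and 46, 7, 6 and 67 at dark. Mutant libraries had 5, 31 and 39 reads at pre and 1, 15 and 7 at dark. Several of these counts are at or near the floor of 3 reads. The difference between the mean log2 changes, mutant minus wild type, was -3.48 with 0.1 CPM added to each value. It did not pass the edgeR test of the difference (adjusted p = 0.555, Benjamini-Hochberg).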

How the results depend on the processing

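Under all alternatives the counts of members in dark against pre stayed at 106 to 137 in the wild type and 84 to 126 in the mutant. The share of BraA IDs there ran from 41.3% to 61.6% and from 37.2% to 58.3%. The counts in recovery against dark stayed at 109 to 129 and 84 to 124, with BraA shares from 40.5% to 60.9% and from 36.4% to 57.3%. The counts in 24hr against pre and in mutant against wild type at recovery stayed at 0 under each. For wild-type recovery against pre the count of 11 became 7 with the compared groups only (BraA 4.43%) and 7 with the legacy quasi-dispersion (BraA 3.63%). With 1 pool left out it was 2 to 11 (BraA 0.677% to 5.44%). For mutant recovery against pre the count of 2 became 6 with DESeq2 (BraA 3.88%) and 0 with the compared groups only (BraA 0.00907%). It became 4 with the replicate block (BraA 3.40%) and 1 with the legacy quasi-dispersion (BraA 1.38%). With 1 pool left out it was 0 to 3 (BraA 0.329% to 2.32%). For mutant against wild type at pre the count of 0 became 2 with DESeq2 (BraA 0.423%). It became 1 with the replicate block (BraA 0.170%) and 1 with the letter term (BraA 0.198%). With 1 pool left out it was 0 to 1 (BraA 0.0356% to 0.131%). At 24hr the count of 0 became 1 with DESeq2 (BraA 0.430%) and 2 with the letter term (BraA 0.384%). At dark the count of 1 became 2 with DESeq2 (BraA 0.904%). It became 0 with the compared groups only (BraA 0%) and 0 with the replicate block (BraA 0.109%). It also became 0 with the letter term (BraA 0.238%) and 0 with the legacy quasi-dispersion (BraA 0.0444%). With 1 pool left out it was 0 to 1 (BraA 0.0239% to 0.343%). For the difference between genotypes from pre to dark, the count of 0 became 2 with DESeq2 (BraA 0.180%) and 1 with the replicate block (BraA 0.0283%). For that from dark to recovery, the count of 0 became 1 with DESeq2 (BraA 0.470%). The cause of these changes was not tested. None of the results recomputed under these alternatives changed sign. Between genotypes, the labels give pools no more than a shared number. The deviations of same-numbered libraries at the same stage had a median correlation of 0.258, with 10 of 12 pairs over 0.1 and a lowest of -0.0519, and 18 of 24 libraries correlated best with their own number. This is a hint of pairing from the data, not the design. Among the named members, BraSca000243 lost its call under 8 of 14 alternatives, BraSca000784 under 6 of 12, and BraSca000784 could not be fitted with the compared groups only. Beyond the results named here and above, the replicate block moved no count of calls by over 1.5 times. Choosing members by median CPM kept 191 of 200. Low depth limits members near the floor of 3 reads.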
